A study of Mus musculus with 9 samples.

Results

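The 9 genes described here are 8 transcription factor genes of sensory neurons and their precursors, together with the somatostatin gene Sst. They are Pou4f1, Prdm12, Hmx1, Isl2, Neurog1, Neurog2, Neurod1 and Runx1 besides Sst. They were taken by symbol from the full gene table of a comparison of Shh KO with Shh WT tissue. Each symbol matched 1 row, so 9 of 27198 rows are described, and all 9 had been tested by the authors. The set was chosen by its fold changes and calls in this same comparison, so the values of the 9 genes are a description and support no further claim.

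The tissue was posterior second heart field (pSHF), dorsal mesoderm whose cells join the atria and the inflow end of the heart, and its polyA RNA was sequenced. It was microdissected from mouse embryos at stage E10.5, and gave 5 Shh KO and 4 Shh WT libraries. Both genotypes are on a mixed strain background. The allele of the Shh KO embryos, their sex and any pooling of embryos are not given in the sources used here. Separate embryos or litters are not stated either, so the spread between libraries may be technical. The options of the authors' test are unknown, so which spread the deposited p-values measure is not known.

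All levels and fold changes are from the authors' deposited tables, which give pooled values per genotype and no value per library. A level is a pooled FPKM, fragments scaled to transcript length and library size. A fold change is the log2 ratio of Shh KO over Shh WT. A gene is called where its deposited Cuffdiff q is under 0.05. Beside each fold change stands a derived standard error (SE), the deposited fold change divided by the deposited test statistic. The depth of each library is unknown, which limits what can be said of genes at low levels. The Shh row had 5.44 FPKM in Shh KO and 15.7 FPKM in Shh WT in the authors' deposited table, a log2 fold change of −1.53. Osr1 (33.5 FPKM in Shh KO and 71.4 in Shh WT) and Foxf1 (42.5 FPKM in Shh KO and 83.5 in Shh WT), both markers of the pSHF, were present in each genotype in the authors' deposited table.

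Sensory neurons of the trunk ganglia come from neural crest cells, and those of the cranial ganglia from neural crest and placodes. The neurogenins Neurog1 and Neurog2 are basic helix-loop-helix (bHLH) factors that start the neuronal programme in their precursors, and Neurod1 is a related factor that acts after them. Pou4f1 and the LIM homeodomain factors of the Isl family then set sensory identity, while Prdm12 and Runx1 are needed in the lineage of pain-sensing neurons. Somatostatin is a secreted peptide made by certain neurons and by endocrine cells of the gut and pancreas.

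The promoters of 5 of these genes are shown first, the 4 called genes with a motif match and Isl2, which shares a match with Sst and was not called. The motifs are the E-box CANNTG, a core that bHLH factors such as the neurogenins bind, and the cyclic AMP response element (CRE) TGACGTCA. Each is the run of 250 bases before a RefSeq transcript start on GRCm38.p6, in the direction of transcription. Capitals mark E-box and CRE matches.
Sst, chr16:23890845-23891094, minus strand: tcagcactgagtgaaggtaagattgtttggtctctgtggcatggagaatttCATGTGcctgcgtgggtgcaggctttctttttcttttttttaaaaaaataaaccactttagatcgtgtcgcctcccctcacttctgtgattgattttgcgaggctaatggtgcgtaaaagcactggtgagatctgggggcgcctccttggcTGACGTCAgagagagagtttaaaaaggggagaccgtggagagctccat
Isl2, chr9:55540899-55541148, plus strand: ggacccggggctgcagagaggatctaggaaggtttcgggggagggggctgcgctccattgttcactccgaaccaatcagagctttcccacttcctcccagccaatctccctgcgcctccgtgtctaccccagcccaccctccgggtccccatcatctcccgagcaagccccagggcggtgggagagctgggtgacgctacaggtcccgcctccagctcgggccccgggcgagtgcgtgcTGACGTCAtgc
Pou4f1, chr14:104468000-104468249, minus strand: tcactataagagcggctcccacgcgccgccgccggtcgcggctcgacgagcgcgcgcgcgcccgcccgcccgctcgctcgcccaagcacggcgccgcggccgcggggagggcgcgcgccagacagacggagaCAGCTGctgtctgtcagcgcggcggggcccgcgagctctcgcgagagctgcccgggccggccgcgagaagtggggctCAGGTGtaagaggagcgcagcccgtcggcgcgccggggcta
Hmx1, chr5:35388611-35388860, plus strand: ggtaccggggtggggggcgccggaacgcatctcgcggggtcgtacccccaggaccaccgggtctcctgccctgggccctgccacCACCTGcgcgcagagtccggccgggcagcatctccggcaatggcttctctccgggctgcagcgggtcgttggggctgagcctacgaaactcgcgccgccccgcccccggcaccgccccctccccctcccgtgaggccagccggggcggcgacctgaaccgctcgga
Neurod1, chr2:79456637-79456886, minus strand: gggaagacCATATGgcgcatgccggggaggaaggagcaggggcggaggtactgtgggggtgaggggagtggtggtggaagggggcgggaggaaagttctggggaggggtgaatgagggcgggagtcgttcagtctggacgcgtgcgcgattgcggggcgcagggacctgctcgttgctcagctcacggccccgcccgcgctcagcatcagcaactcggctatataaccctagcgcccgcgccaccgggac

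All 9 genes had a promoter in the RefSeq table, with 10 starts in all because Runx1 has 2. Both strands were searched in each. The CRE stood 48 to 41 bases before the start of Sst and 11 to 4 bases before that of Isl2, and was found in 2 of the 10 promoters and in 1.55% of 32841 mouse promoters of this length. An E-box was found in 5 of the 10 promoters, against 66.2% of all promoters. Pou4f1 had E-boxes at 118 to 113 and at 41 to 36 bases before its start. Its first E-box reads CAGCTG, a form found in 1 of the 10 promoters and in 13.0% of all promoters. The form CAGATG was found in 0 of the 10 promoters and in 14.4% of all promoters. Hmx1, Sst and Neurod1 had 1 E-box of any form each, and the first start of Runx1 had 3. The homeodomain core TAATTA was found in Neurog1, 199 to 194 bases before the start, and in 4.84% of all promoters. The GLI motif GACCACCCA was found in 0 of the 10 promoters and in 0.225% of all promoters. A match shows only that these letters are in the window, and a motif with no match may lie outside it. The printed Hmx1 promoter ends at position 35388860, while the deposited Hmx1 row begins at 35389117, downstream of this start.

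**Figure D1:**
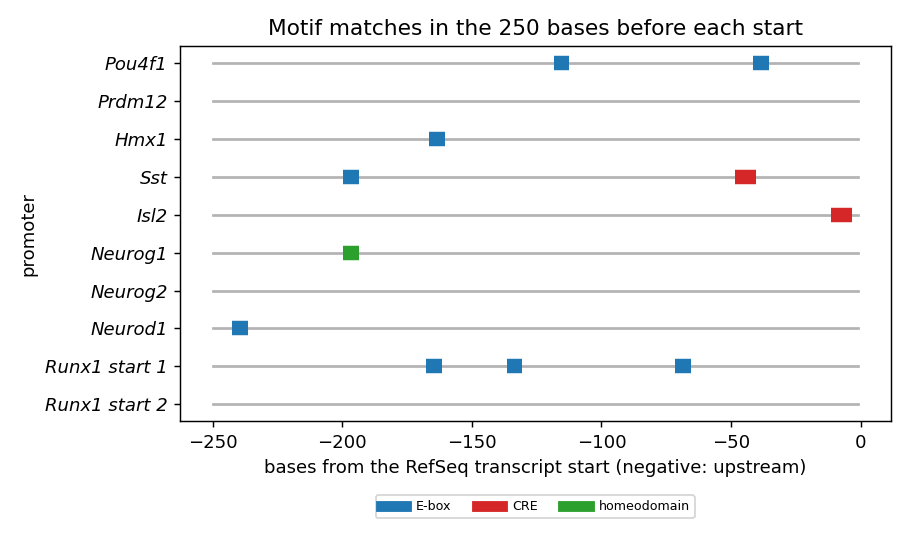
Position of motif matches (horizontal axis, bases from the RefSeq transcript start) in the 10 promoters of the 9 genes (vertical axis). Coloured blocks are E-box, CRE and homeodomain matches, and the CRE matches of Sst and Isl2 both lie close to the start.

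Sst, Hmx1, Prdm12 and Pou4f1 were higher in Shh KO tissue by factors of 7.13 to 15.8, and Neurod1 by a factor of 2.91, in the authors' deposited table. Cuffdiff called these 5 of the 9 genes higher and 0 lower. Of 13048 named tested genes, 1.56% were called higher and 0.383% lower. Neurog1, Runx1, Isl2 and Neurog2 were not called. At an unadjusted Cuffdiff p under 0.05, 7 of the 9 genes were higher and 0 lower, against 5.83% and 1.68% of all named tested genes. The median log2 fold change of the 9 genes was 1.54, and that of all named tested genes was 0.02. The genes were chosen with these values known, so nothing is read from either count. The calls rest on the deposited p-values: Benjamini-Yekutieli adjustment left 0 of the 5, and reading the deposited statistic as a normal deviate left 1 (Sst). With at least 1 FPKM required in both genotypes, 1 (Hmx1) of the 5 remained. In bulk tissue, more cells of a type and more RNA per cell cannot be told apart.

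**Figure D2:**
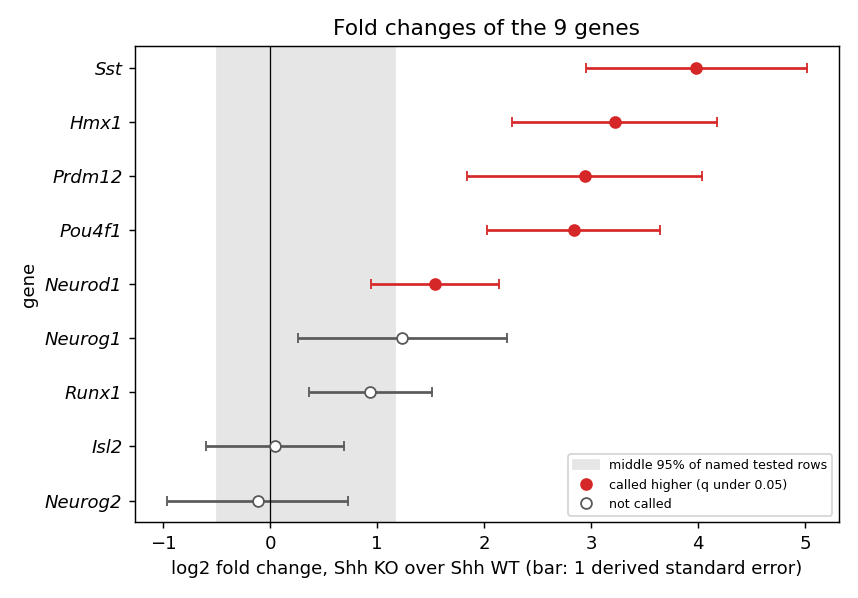
Log2 fold change of Shh KO over Shh WT (horizontal axis) for the 9 genes (vertical axis), with bars of 1 derived SE. Filled points are the 5 called genes, from 1.54 for Neurod1 to 3.98 for Sst, and the grey band (−0.50 to 1.17) holds the middle 95% of named tested genes.

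Pou4f1 encodes a POU homeodomain factor (Brn3a) of sensory neurons and lies on chromosome 14 (104462325 to 104467999, mm10). Its pooled level was 1.54 FPKM in Shh KO and 0.215 FPKM in Shh WT in the authors' deposited table. Its log2 fold change there was 2.83 (derived SE 0.81, Cuffdiff q = 0.00554). Both levels were low among the called genes. Of the 253 genes called in either direction, 228 had a higher Shh KO level than Pou4f1 and 4 a lower Shh WT level.

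Prdm12 encodes a zinc finger factor with a PR domain, known from nociceptor development, and lies on chromosome 2 (31640037 to 31655795). The authors' deposited table lists it at 2.06 FPKM in Shh KO and 0.268 FPKM in Shh WT. Its log2 fold change was 2.94 (derived SE 1.10, Cuffdiff q = 0.00554) in the authors' deposited table, with the widest derived error of the 9 genes. Prdm12 and Pou4f1 were close in level and in change. The log2 fold change of Prdm12 minus that of Pou4f1 was 0.11, against a combined derived SE of 1.36, which treats the genes as independent although they share libraries.

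Hmx1 encodes a homeobox factor of cranial ganglia and of the mesenchyme of the face and outer ear, and lies on chromosome 5 (35389117 to 35392872). It had 15.1 FPKM in Shh KO and 1.63 FPKM in Shh WT in the authors' deposited table, a log2 fold change of 3.22 (derived SE 0.96, Cuffdiff q = 0.00554). It was the only one of the 5 called genes with more than 1 FPKM in both genotypes. Per length, Hmx1 transcripts in Shh KO were 9.85 times those of Pou4f1, and in Shh WT 7.55 times, in the authors' deposited table. The log2 fold changes of Hmx1 and Pou4f1 differed by 0.38, less than their combined derived SE of 1.26.

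Isl2 encodes a LIM homeodomain factor of motor and sensory neurons and lies on chromosome 9 (55541149 to 55546178). Its log2 fold change was 0.05 (derived SE 0.65, Cuffdiff q = 1.00) in the authors' deposited table. That value lies in the middle of all named tested genes, 53.9% of which had a lower fold change. Isl2 and Pou4f1 are both factors of early sensory neurons, and their log2 fold changes differed by 2.79 (Pou4f1 minus Isl2), against a combined derived SE of 1.04. No pooled level was used for Isl2 or for the other genes that were not called, since the shorter deposited table lists called genes.

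The 3 bHLH genes of the neurogenic cascade had fold changes of different sizes. Neurod1, on chromosome 2 (79452641 to 79456636), had 2.71 FPKM in Shh KO and 0.930 FPKM in Shh WT in the authors' deposited table. Its log2 fold change was 1.54 (derived SE 0.60, Cuffdiff q = 0.00554) in that deposited table of the authors. Neurog1, on chromosome 13 (56250498 to 56252163), had a log2 fold change of 1.24 (derived SE 0.98, Cuffdiff q = 0.304) in the authors' deposited table and was not called. For Neurog2, on chromosome 3 (127633145 to 127635631), the authors' deposited table gives −0.12 (derived SE 0.85, Cuffdiff q = 1.00). Neurog1 was thus 1.35 above Neurog2 on the log2 scale, about the size of the combined derived SE of 1.29. Neurod1 was 1.66 above Neurog2 (combined derived SE 1.03) and 0.31 above Neurog1 (combined derived SE 1.14).

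Sst, on chromosome 16 (23889581 to 23890844), is the gene of the 9 with the largest fold change and the only one that codes for a secreted peptide. Its level was 14.7 FPKM in Shh KO and 0.927 FPKM in Shh WT in the authors' deposited table. The log2 fold change was 3.98 (derived SE 1.03, Cuffdiff q = 0.0137) there in the authors' deposited table, ranked 2 among the 203 genes called higher. In Shh KO the Sst level was 0.969 times that of Hmx1, and in Shh WT 0.570 times, in the authors' deposited table. The log2 fold change of Sst was 0.77 above that of Hmx1, within the combined derived SE of 1.41. At a q under 0.01 Sst is not called, while the other 4 called genes share the smallest q of the table and cannot be ranked by it.

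Runx1, on chromosome 16 (92601466 to 92826066), encodes a runt domain factor that is needed for blood formation as well as in sensory neurons. Its log2 fold change was 0.94 (derived SE 0.58, Cuffdiff q = 0.101) in the authors' deposited table, so of the 4 genes not called it was the nearest to the threshold. No other deposited row overlaps any of the 9 rows. RefSeq places the noncoding gene Gm30281 within the Runx1 span, and the strand setting of the counting is not known.

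**Figure D3:**
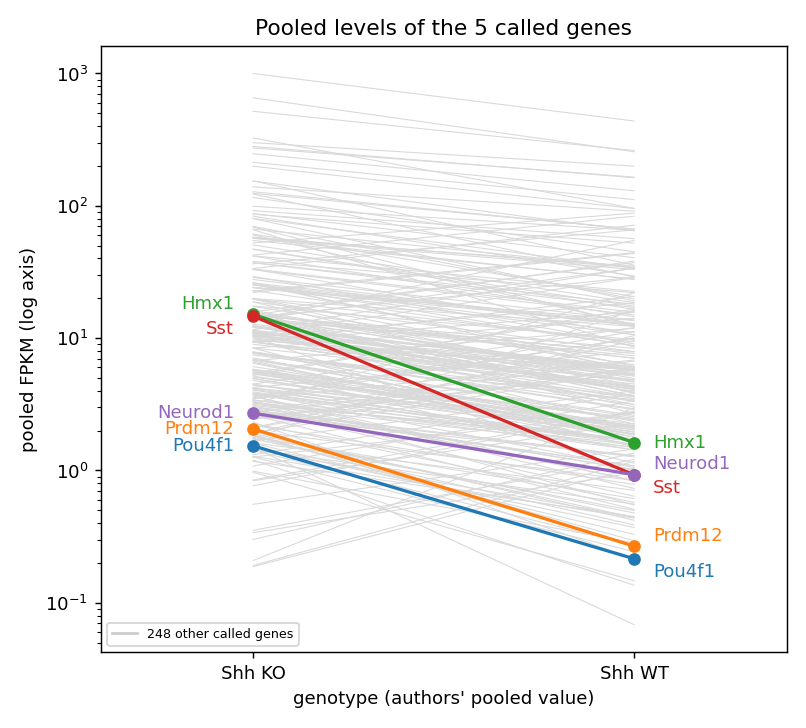
Pooled FPKM (vertical log axis) in Shh KO (left) and Shh WT (right) of the 5 called genes, with 1 coloured line per gene, over grey lines for the 248 other called genes. Hmx1 and Sst lie near 15 FPKM in Shh KO, while Neurod1, Prdm12 and Pou4f1 lie between 1.54 and 2.71 FPKM.

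Other genes of sensory neurons gave 1 call higher and 0 lower among 13 tested of 25 listed, with a median log2 fold change of 0.38. Tlx3, a homeobox factor of sensory neurons (1.11, Cuffdiff q = 0.445), P2rx3, an ATP-gated channel of nociceptors (0.99, q = 0.0797), and the neuropeptide gene Gal (0.79, q = 0.325) were positive but uncalled in the authors' deposited table. Ntrk2 (0.55) and Ntrk3 (0.38), neurotrophin receptors of sensory neurons, and Isl1 (−0.39) had no call in the authors' deposited table. Prph (0.45), a neuronal filament gene of peripheral neurons, had no call either in the authors' deposited table. Not all markers of sensory neurons were thus called. Pou4f1 and Prdm12 were among those called higher, while Isl1, Isl2, Runx1, Ntrk2, Ntrk3, Tlx3 and Prph missed the threshold. Of the 13 other sensory neuron genes tested, 10 had a fold change above 0, against 54.9% of all named tested genes. At an unadjusted Cuffdiff p under 0.05, 5 of the 13 were higher and 0 lower, against 5.83% and 1.68% of all named tested genes. Runx3 and Avil were among the 12 listed genes without a tested row, so these markers give no information here. Of the neurogenic genes besides the 3 described, 2 of 12 tested were called higher and 0 lower, with a median of 0.70, and 1 at a q under 0.01. Both encode bHLH factors of newborn neurons, Nhlh1 (3.63 FPKM in Shh KO and 0.834 in Shh WT) and Nhlh2 (3.40 FPKM in Shh KO and 1.43 in Shh WT), in the authors' deposited table. The Notch target Hes5 (1.42, Cuffdiff q = 0.200), the Notch ligand gene Dll1 (1.00, q = 0.0502) and Myt1 (0.84, q = 0.418) had no call in the authors' deposited table.

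Markers of other cells that hold some of the same factors differed in direction. Genes of the sympathetic and enteric lineages, which also come from neural crest, gave 0 calls higher and 2 lower among 9 tested (median −0.82). Dbh, an enzyme of noradrenaline synthesis, had 3.54 FPKM in Shh KO and 11.3 FPKM in Shh WT in the authors' deposited table. Ret, a receptor of enteric precursors, had 2.44 FPKM in Shh KO and 5.78 FPKM in Shh WT in the authors' deposited table. Th (−1.06, Cuffdiff q = 0.144) and Phox2a (−1.94, q = 1.00, with a derived SE larger than the change itself) had no call in the authors' deposited table. Among 10 tested rows of neural crest and glial precursor genes the median was 0.02, with Fabp7, a lipid carrier of glial precursors, called higher (19.9 FPKM in Shh KO and 5.87 in Shh WT) in the authors' deposited table. Sox10 (−0.37), Foxd3 (−0.49) and Ednrb (0.44) had no call in the authors' deposited table. Cranial placode genes gave 0 calls higher and 1 lower among 8 tested (median −0.12). Irx1 had 13.8 FPKM in Shh KO and 33.8 FPKM in Shh WT, and Sox3 (1.59, Cuffdiff q = 0.114) was not called, in the authors' deposited table.

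Some genes of spinal interneurons and of trunk level were also called higher, while others of these lists were uncalled or below 0. Few motor neuron genes were tested. Among spinal and hindbrain interneuron genes, 3 of 8 tested were called higher and 0 lower (median 1.54), and 1 at a q under 0.01. These were Robo3, a guidance receptor of commissural neurons, and the homeobox genes Lhx1 and En1, for which the authors' deposited table gives log2 fold changes of 4.45, 2.72 and 2.36. Their Shh KO levels were 1.49, 0.969 and 2.62 FPKM, against Shh WT levels of 0.0683, 0.147 and 0.509 FPKM, in the authors' deposited table. Olig3, a factor of dorsal neural tube progenitors (4.05, Cuffdiff q = 0.0860), Lhx2 (0.72) and Lhx9 (−0.49) had no call in the authors' deposited table. Spinal motor neuron genes gave 0 calls by Cuffdiff among 3 tested of 8 listed, and 0 at an unadjusted p under 0.05. Slc18a3 (−0.58), Isl1 and Mnx1 (−0.30) were below 0 in the authors' deposited table. Over all named tested genes 1.56% were called higher and 0.383% lower, so 0 calls among 3 genes says little. Trunk Hox genes, which mark axial level, gave 7 calls higher and 0 lower among 14 tested (median 1.65). Hoxb9 (3.44), Hoxc8 (3.44), Hoxb8 (2.29), Hoxa7 (2.13, in a row shared with Mira), Hoxb7 (1.81), Hoxc6 (1.72) and Hoxc5 (0.84) were called, and Hoxc9 (3.08), Hoxb6 (1.59) and Hoxd10 (−2.17, Cuffdiff q = 0.0513) were uncalled, in the authors' deposited table. Fold changes were above 0 for 6 of the 8 interneuron genes, 0 of the 3 motor neuron genes and 11 of the 14 Hox genes tested. Over all named tested genes, 54.9% had a fold change above 0. The part of axial level or of spinal cord tissue in the rises of the 5 genes was not tested.

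Genes that all neurons share were listed as well. Of 15 tested, 3 were called higher and 0 lower. A positive fold change was found for 14 of the 15, against 54.9% of all named tested genes. The median of the 15 was 0.42, close to the 0.38 of the list of other sensory neuron genes. Tubb3, a neuronal tubulin, had 66.7 FPKM in Shh KO and 34.1 FPKM in Shh WT in the authors' deposited table. Elavl3 (1.16) and Stmn2 (0.93) were the other called genes, and Stmn3 (0.96), Ina (0.52) and Elavl4 (0.52) were uncalled, in the authors' deposited table. These called changes are smaller than those of Pou4f1, Prdm12, Hmx1 and Sst, which were chosen with their fold changes known. The difference between genes was not tested.

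**Figure D4:**
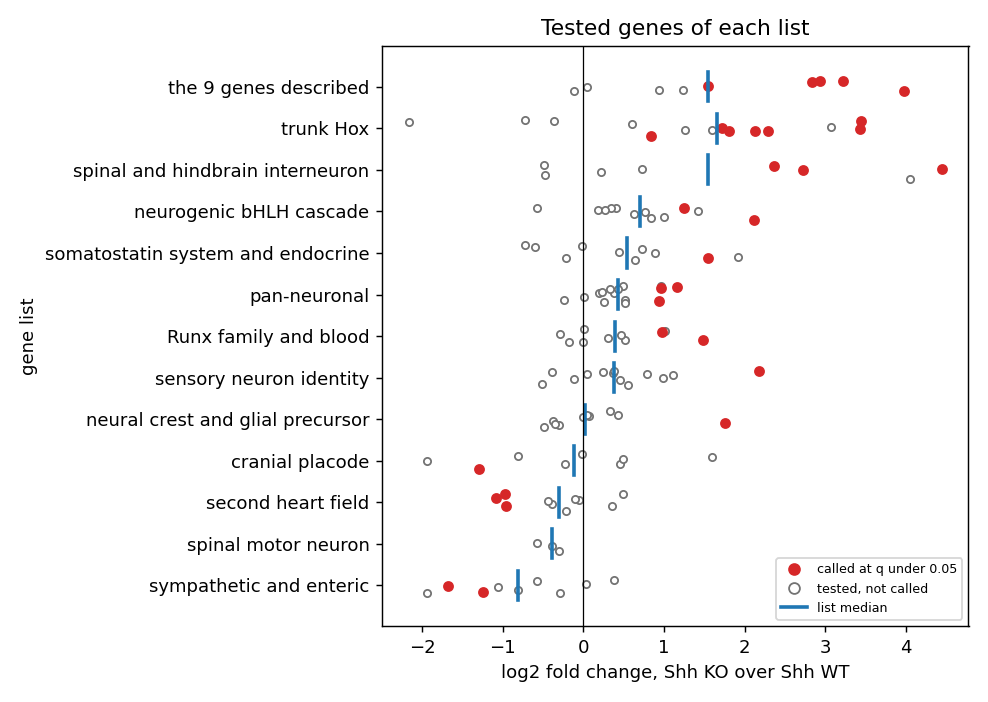
Log2 fold change of Shh KO over Shh WT (horizontal axis) of every tested gene in the 9 genes and in 12 gene lists (vertical axis). Blue bars are medians. The 12 lists are ordered by median, while the 9 genes are placed at the top whatever their median. Red points are called genes, which lie above 0 in the trunk Hox and interneuron lists and below 0 in the sympathetic and enteric list.

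For Sst, endocrine cells are another known source. Endocrine and somatostatin receptor genes gave 1 call higher and 0 lower among 10 tested of 20 listed (median 0.54). The called gene was Gcg, which encodes proglucagon, with a log2 fold change of 1.55 (derived SE 0.75, Cuffdiff q = 0.00554) in that deposited table of the authors. Pdx1, a factor of pancreas and duodenum (1.92, Cuffdiff q = 1.00), Pax6 (0.89, q = 0.202) and Scg3 (0.73, q = 0.688) had no call in the authors' deposited table. Chgb (−0.73) and Chga (−0.60) were below 0 and uncalled in the authors' deposited table. Fold changes were above 0 for 6 of the 10 tested genes of this list, close to the 54.9% of all named tested genes. Of the receptor genes, Sstr4 (−0.21, Cuffdiff q = 1.00) was tested, and Sstr1, Sstr2, Sstr3 and Sstr5 were not, in the authors' deposited table. Cort, the related cortistatin gene, has −0.01 in the same column of the authors' deposited table. The part of endocrine cells in the rise of Sst was not tested.

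For Runx1, blood cells are another known source. Among Runx family and blood genes, 2 of 10 tested were called higher and 0 lower (median 0.39), and 0 at a Cuffdiff q under 0.01. They were Spi1, a myeloid factor listed under its older symbol Sfpi1 (6.09 FPKM in Shh KO and 2.17 in Shh WT), and the platelet integrin gene Itga2b (15.1 FPKM in Shh KO and 7.65 in Shh WT), in the authors' deposited table. Csf1r, a macrophage receptor (1.01, Cuffdiff q = 0.0576), Runx2 (0.51) and Myb (0.47) had no call in the authors' deposited table. Fold changes were above 0 for 7 of the 10 tested, against 54.9% of all named tested genes. Tal1 (−0.29), Gata1 (−0.17) and Gfi1b (−0.01) were below 0 and uncalled in the authors' deposited table. The part of blood cells in the fold change of Runx1 was not tested. Genes of the second heart field itself gave 0 calls higher and 3 lower among 10 tested (median −0.30). Osr1 and Foxf1, given with the tissue, and Tbx1 (22.7 FPKM in Shh KO and 44.2 in Shh WT) were called, and Fgf10 (0.49), Tbx5 (−0.44) and Isl1 were not, in the authors' deposited table.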

How the data were processed

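Per the submitters' processing notes, reads were handled with TopHat2 2.0.10 and Cuffdiff 2.1.1, with build mm9 named. Options, scaling and strand settings are unknown. The authors deposited a full table with a log2 fold change, a Cuffdiff statistic (a score), a p-value and a q-value per row, and a shorter table of 253 called genes with pooled FPKM, the ratio and its log2. A deposited p-value under 1 was taken to mean that a row was tested (16944 rows), and Benjamini-Hochberg adjustment over these gave the deposited q-values to within 5.94e-05. The log2 fold change of the full table equals the log2 ratio given in the shorter table for all 253 genes to within 1.07e-05. Fold changes run as Shh KO over Shh WT: Sst (14.7 FPKM in Shh KO and 0.927 in Shh WT) has 3.98 in the authors' deposited table. The statistic has the opposite sign to the fold change in all 16918 tested rows with both values, and the derived SE is the size of their ratio. It is not the error behind the deposited p-values.

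Positions are given as mm10, because 98.7% of 21107 rows matched by symbol overlap their RefSeq gene on GRCm38, and 1 was added to each start. Positions in the promoter search are from RefSeq on GRCm38.p6.

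The 9 genes, the 12 gene lists and the alternatives were chosen with earlier results of these data known. All 9 genes are named, as are the called genes of each list and the 3 tested genes of largest fold change that were not called. Ntrk2, Ntrk3, Prph, Runx3, Avil, the somatostatin receptors and Cort were named besides. So were Chga, Chgb, Tal1, Gata1 and Gfi1b. Lists are described by counts and medians over tested rows. Drgx had no row under that symbol, and some genes, such as Isl1, Phox2a, Pax2 and Runx3, stand in more than 1 list. A few genes that this rule would name are not reported here. No test was possible over libraries. Adjustment, derived SE and motif search were tested on simulated data. Scripts used Python 3.11.15, numpy 2.4.6 and pandas 2.3.3.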

Additional observations from a re-analysis of the deposited data

How the results depend on the processing

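Of the 9 genes, 5 were called higher, and 4 or 5 at a Cuffdiff q under 0.01 or 0.10, with adjustment over named genes alone, or without rows of several symbols. Requiring at least 1 FPKM in both genotypes left 1 (Hmx1), because the other 4 were under 1 FPKM in Shh WT. Benjamini-Yekutieli adjustment left 0, as the smallest deposited p becomes 0.0571. Reading the deposited statistic as a normal deviate, an alternative chosen after seeing the data, left 1 (Sst), with 6 named genes higher and 17 lower over the whole table. The cause was not tested. No gene of the 9 was called lower under any of these 7 alternatives. Adding 1 FPKM to the pooled level of each genotype gave log2 fold changes of 1.06 for Pou4f1, 1.27 for Prdm12 and 0.94 for Neurod1, which moved by more than their derived SE, and 2.62 for Hmx1 and 3.02 for Sst, which did not. Adding 0.1 FPKM, or subtracting the median fold change of all named genes, moved none of them by that much. Of the 24 list counts, 3 moved by more than 1.5 times at a q under 0.01, 3 at a q under 0.10 and 1 with adjustment over named genes. Interneuron genes called higher dropped to 1 and Runx family and blood genes to 0 at a q under 0.01. No paired analysis was possible because the tables hold no value per library, and leaving out each replicate was not run for the same reason. Low levels limit these results: 4 of the 5 called genes were under 1 FPKM in Shh WT.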

Other observations

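The nearest tested and named genes on either side of the 9 genes gave 2 calls higher among 18. Of all named tested genes, 1.56% were called higher. Cpz, an extracellular carboxypeptidase gene to the right of Hmx1 at a distance of 109 kb, is given in the authors' deposited table at 1.42 (log2 fold change). Cxcl14, a chemokine gene to the right of Neurog1 at 36.5 kb, is given in the authors' deposited table at 1.48 (log2 fold change). The other neighbours were not called, and the median over the 18 was −0.09.

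By distance over the 2 pooled log2 FPKM values, the called genes near Pou4f1 included Gabrp and Grm2, and those nearest to Prdm12 were Grm2, Kirrel2 and Hoxc8. Nearest to Sst were Hoxb9, Hmx1 and Zic1, and nearest to Hmx1 were Hoxb8, Nepn and Sst. Zic1 had 8.40 FPKM in Shh KO and 1.51 FPKM in Shh WT in the authors' deposited table. Nearest to Neurod1 were Foxa3, Ass1 and Nell1, at distances of 0.192 to 0.221. With 2 values per gene this likeness says only that levels and changes were close.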
